A study of Mus musculus with 2 samples.

Results

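The genes described here are 34 genes of reactive astrocytes and of the response to injury, measured in mouse optic nerve. They were taken by name from the 23950 gene symbols of the RNA-seq tables, and all 34 were found, with 1 entry each. RNA came from whole optic nerve of mice of mixed strain at postnatal day 12, with 1 library of Hdac3f/+; Olig1-cre animals (control) and 1 library of Hdac3f/f; Olig1-cre animals (Hdac3 cKO). Both groups carry Olig1-cre, a recombinase made where the Olig1 gene is active, above all in the oligodendrocyte lineage. The control group carries 1 Hdac3 allele that Cre can delete. How many animals each library pools is unknown from the sources used here. HDAC3 removes acetyl groups from histones, and the design addresses its role in oligodendrocyte against astrocyte fate.

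Astrocytes respond to injury, inflammation or loss of neighbouring cells by a graded change of gene expression called reactivity. Intermediate filaments, protease inhibitors, acute phase proteins and stress proteins are typical products, and cytokines of the gp130 family acting through STAT3, with NF-kappa-B and C/EBP factors, are the best studied inducers. One set of genes is known as common to many injuries, another was described after lipopolysaccharide injection and a further one after ischaemia. In the optic nerve the astrocyte is one of several sources of these transcripts. Fibroblasts of the meningeal sheath, endothelium and mural cells of vessels make many of the same products.

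The values are FPKM, fragments scaled to transcript length and library size, each with an interval that the authors deposited. A difference is the log2 of cKO FPKM plus 1 over control FPKM plus 1. A gene was counted higher or lower in cKO when it differed by 2-fold or more and the deposited intervals were separate. With 1 library a group there is no replicate check and no p-value, so all statements describe these libraries and not the genotypes. In whole nerve, fewer cells of a type and less RNA per cell cannot be told apart.

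Read depth is unknown. Among 1401 genes above 0 in both libraries and under 0.08 FPKM in control, the ratio of control over cKO FPKM piled up near 3.19. This is the ratio that 1 fragment in each library would give, so the cKO library appears about that much deeper. Hdac3 itself was at 36.4 FPKM in control against 38.04 in cKO (log2 0.06), and its intervals overlap. The gene-level value does not show which exons were read, so it leaves the genotype labels unchecked. All 10 oligodendrocyte markers were counted lower in cKO, against 4.51% of all genes tested. Their summed level was 11777 FPKM in control against 1685 in cKO. All 16 astrocyte markers were present at 1.60 FPKM or more in control. The median log2 difference of the 14154 genes tested was 0.12.

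Of the 34 genes, 15 were counted higher in cKO, against 4.73% of all genes tested. None was counted lower, against 4.51% of all genes tested. The median log2 difference of the 34 was 0.81, with a middle 50% of 0.49 to 1.1, while the middle 50% of all tested genes ran from -0.17 to 0.43. A difference above 0 was seen for 31 of 34, against 61.4% of all tested genes, and 27 of 34 lay above 0.43, the upper quartile of all tested genes. The interval of the cKO library lay wholly above that of control for 30 of 34, against 38.4% of tested genes. These genes were chosen with earlier results of the same libraries in view, so the counts describe them and are no independent evidence.

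All 34 reached 1 FPKM in at least 1 library. Of these, 30 did so in both, 3 in cKO alone (Orm2, Slc10a6 and Tgm1) and 1 in control alone (B3gnt5). Among the 23 genes with a mean of at least 5 FPKM over both libraries, 12 were counted higher, against 5.96% of all tested genes of that level. The pseudocount narrows the differences of low genes, and 18 of the 34 had a plain FPKM ratio of at least 2. Many of the calls lie close to the 2-fold limit. Just inside it were Cd14 (log2 1.0), Lcn2 (1.03) and Lgals1 (1.07), and just outside it were Serpina3n (0.91), Emp1 (0.83) and Amigo2 (0.79). Scaling both libraries to the same FPKM sum moved the median of all tested genes from 0.12 to -0.19 and left 3 of the 34 counted higher (Srgn, Fam107a and Orm2), against 1.49% of all tested genes. The 34 then had a median of 0.56, and one of 0.69 when all differences were centred on the median of tested genes.

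**Figure D1:**
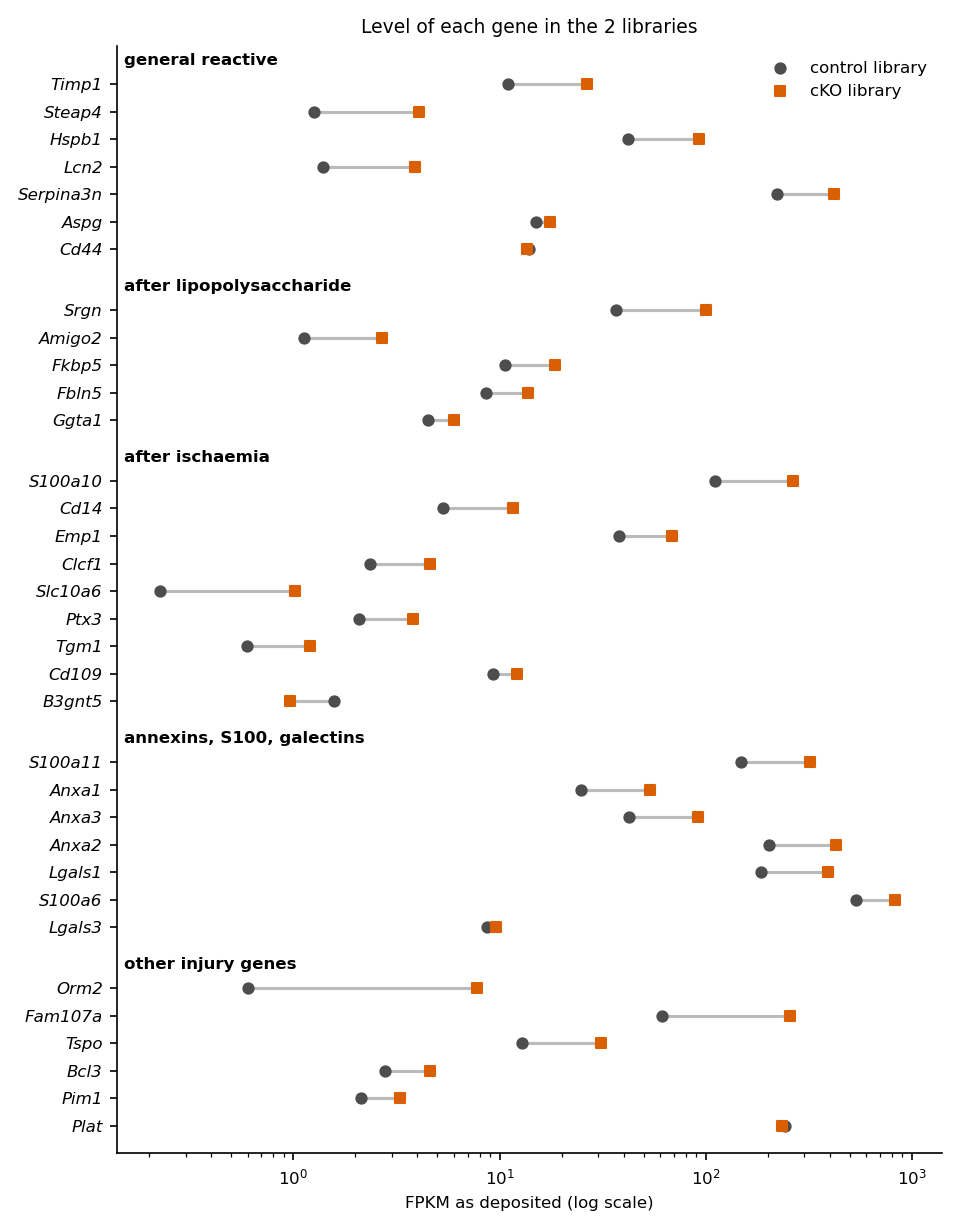
Each row is a gene, grouped by role, and the horizontal axis is FPKM on a log scale. Grey circles are the control library and orange squares the cKO library, without replicates. The square lies to the right of the circle for 31 of 34 genes, and the exceptions are Cd44, Plat and B3gnt5.

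**Figure D2:**
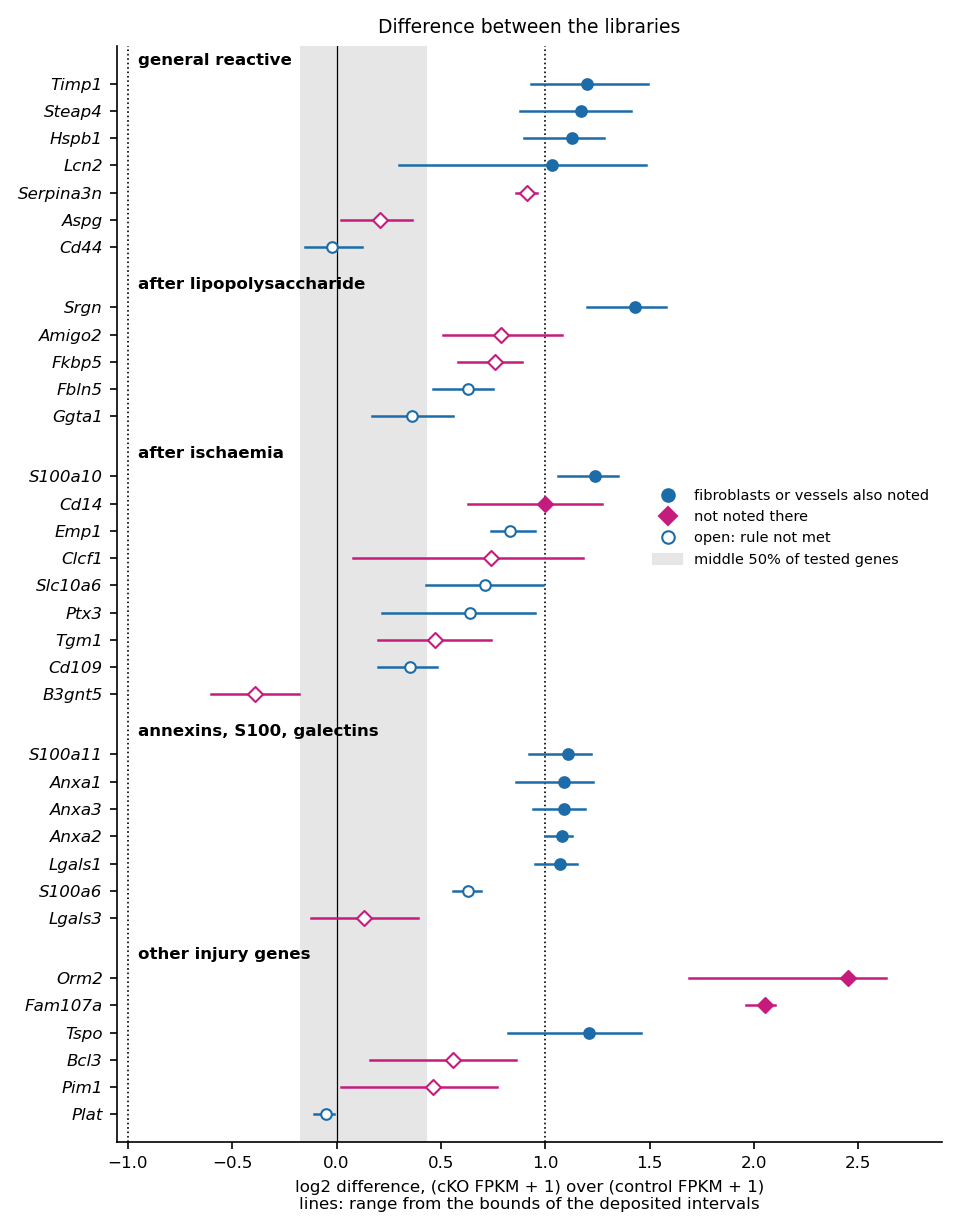
The horizontal axis is the log2 difference of cKO against control, and lines run between the extremes that the bounds of the deposited intervals allow. Filled symbols mark the 15 genes counted higher, circles mark the 21 genes also known from fibroblasts or vessels, diamonds the other 13, dotted lines the 2-fold limits, and the grey band the middle 50% of tested genes (-0.17 to 0.43).

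Promoter sequences are shown for 5 of the genes, because they hold the letters that STAT factors and AP-1, both active in reactive glia, are known to bind. RefSeq promoter windows (GRCm38.p6, 250 bases before to 50 after the start of the gene) were found for 26 of the 34 genes. There was none for Anxa3, Cd109, Cd14, Clcf1, Lgals1, Plat, S100a10 or Tspo. The 4 genes counted higher with a match to either motif before the start are given, and Emp1, the only one of the 26 with both. Each line holds the 250 bases before the start on the plus strand, 5′ to 3′, with matches to TTCNNNGAA (STAT) or TGANTCA (AP-1) in capitals. Both motifs read the same on both strands.
Steap4, chr5:7960222-7960471: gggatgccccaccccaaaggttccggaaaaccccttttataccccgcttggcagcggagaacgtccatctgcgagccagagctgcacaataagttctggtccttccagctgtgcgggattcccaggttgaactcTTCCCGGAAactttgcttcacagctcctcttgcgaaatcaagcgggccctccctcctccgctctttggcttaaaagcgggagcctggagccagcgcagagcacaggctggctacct
S100a11, chr3:93520246-93520495: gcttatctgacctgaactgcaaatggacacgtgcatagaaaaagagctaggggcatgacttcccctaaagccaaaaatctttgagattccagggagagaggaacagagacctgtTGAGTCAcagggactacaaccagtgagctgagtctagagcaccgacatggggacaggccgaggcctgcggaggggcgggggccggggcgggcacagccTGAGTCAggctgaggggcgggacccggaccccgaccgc
Anxa2, chr9:69453433-69453682: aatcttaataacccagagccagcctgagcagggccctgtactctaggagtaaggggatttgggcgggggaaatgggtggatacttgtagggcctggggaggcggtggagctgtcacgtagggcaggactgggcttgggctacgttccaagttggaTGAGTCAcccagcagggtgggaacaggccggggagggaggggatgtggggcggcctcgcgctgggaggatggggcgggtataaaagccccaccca
Orm2, chr4:63362199-63362448: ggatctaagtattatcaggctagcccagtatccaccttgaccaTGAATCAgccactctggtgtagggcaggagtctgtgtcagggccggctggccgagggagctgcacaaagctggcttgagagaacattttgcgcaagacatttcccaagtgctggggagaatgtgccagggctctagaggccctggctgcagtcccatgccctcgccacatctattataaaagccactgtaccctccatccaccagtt
Emp1, chr6:135362681-135362930: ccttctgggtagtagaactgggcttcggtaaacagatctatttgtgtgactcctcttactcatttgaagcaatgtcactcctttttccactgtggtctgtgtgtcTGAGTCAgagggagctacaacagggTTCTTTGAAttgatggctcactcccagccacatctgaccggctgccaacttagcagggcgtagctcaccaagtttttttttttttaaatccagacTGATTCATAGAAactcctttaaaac

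Counted from the start of the gene, the STAT letters of Steap4 begin at position -116, and the AP-1 letters of S100a11 begin at -136 and -38. In Emp1 the second AP-1 match and the second STAT match overlap. Over the whole windows, the STAT letters were found for 3 of the 26 genes (Emp1, Steap4 and Tgm1), against 9.55% of all symbols with a window. The AP-1 letters were found for 4 of 26 (Anxa2, Emp1, Orm2 and S100a11), against 8.97%. A loose NF-kappa-B pattern, GGG and CC with 5 free bases between them on either strand, was found for 23 of 26, against 53.5%. Counted by window it was found in 24 of 33, against 50.8% of all windows. The GC content of the windows was 55.0% in these genes and 52.7% over all windows (medians). The difference from all windows was not tested. The heat shock element, GAA, TTC and GAA spaced by 2 free bases on either strand, was found for 0 of 26 (0.662% of all symbols) and the glucocorticoid response element, AGAACA and TGTTCT spaced by 3 free bases, for 0 of 26 (0.0111%). A match describes the letters of these windows and does not show binding, and the windows cover little of a gene's regulatory sequence.

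Among the 7 genes common to many kinds of astrocyte reaction, 4 were counted higher in cKO, against 4.73% of all tested genes. The group median was 1.03. Timp1, which encodes an inhibitor of matrix metalloproteinases (chromosome X, 20447292 to 20451863, mm9), was at 11.02 FPKM in control (interval 9.43 to 12.6) against 26.6 in cKO (24.99 to 28.2). Its log2 difference was 1.2. Steap4, a metalloreductase of iron and copper (chromosome 5, 7960472 to 7982213, mm9), was at 1.26 FPKM in control (0.992 to 1.51) against 4.09 in cKO (3.63 to 4.30), a log2 difference of 1.17. Hspb1, the small heat shock protein HSP27 (chromosome 5, 136363789 to 136365433, mm9), was at 42.0 FPKM in control against 93.3 in cKO, a log2 difference of 1.13. The intervals of these 3 genes are separate between the libraries, but for Hspb1 both values exceed the deposited intervals (30.7 to 37.4 and 70.6 to 76.1).

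Lcn2, a secreted lipocalin that binds siderophores and is among the most strongly induced genes of reactive astrocytes, was low in both libraries. It was at 1.39 FPKM in control (0.722 to 1.95) against 3.89 in cKO (2.64 to 3.79), a log2 difference of 1.03. It was not counted in 6 of 11 other settings, including interval midpoints and each of the 4 other scalings. Serpina3n, a secreted serine protease inhibitor, was by contrast abundant in both, at 223 FPKM in control against 421 in cKO, and its log2 difference of 0.91 fell short of the rule although the intervals are far apart (198 to 208 and 377 to 385). Aspg, an asparaginase, was at 15.0 and 17.6 FPKM (log2 0.21, and -0.12 after scaling to the same sum). Cd44, the hyaluronan receptor, was at 13.9 FPKM in control against 13.6 in cKO (log2 -0.02), and its intervals overlap.

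Of the 5 genes described after lipopolysaccharide, 1 was counted higher, against 4.73% of all tested genes, and the group median was 0.76. Srgn, the granule proteoglycan serglycin (chromosome 10, 61957176 to 61970503, mm9), was at 36.9 FPKM in control against 101 in cKO, with intervals of 27.1 to 33.0 and 77.3 to 83.0 that lie below the values. Its log2 difference was 1.43, and it was counted higher in all 12 other settings. Fkbp5, a co-chaperone of the glucocorticoid receptor, was at 10.6 FPKM in control against 18.7 in cKO (log2 0.76). Fbln5, the elastic fibre protein fibulin 5, was at 8.55 and 13.7 FPKM (log2 0.63). Ggta1, a galactosyltransferase, was at 4.50 and 6.05 FPKM (log2 0.36). For these 3 genes the cKO interval lay above that of control without a 2-fold difference. The adhesion gene Amigo2 was at 1.13 FPKM in control (0.877 to 1.38) against 2.68 in cKO (2.38 to 2.96), a plain ratio of 2.38. Its log2 difference was 0.79 with the pseudocount of 1 FPKM and 1.18 with 0.1 FPKM, where it was counted higher.

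Of the 9 genes described after ischaemia, 2 were counted higher, against 4.73% of all tested genes, and the group median was 0.71. S100a10, also called p11, is the partner protein of annexin A2 (chromosome 3, 93359039 to 93368567, mm9). It was at 111 FPKM in control (72.9 to 84.8) against 264 in cKO (178 to 188), a log2 difference of 1.24. Cd14, the lipopolysaccharide co-receptor of myeloid cells, was at 5.29 FPKM in control (4.02 to 5.83) against 11.6 in cKO (9.57 to 11.1). Its log2 difference of 1.0 sits on the limit, and it was not counted in 6 of 12 other settings. Emp1, a membrane protein of the PMP22 family, was at 38.1 FPKM in control (36.1 to 40.1) against 68.4 in cKO (67.6 to 70.7), a log2 difference of 0.83. Cd109, a co-receptor that limits TGF-beta signalling, was at 9.30 and 12.1 FPKM (log2 0.35).

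The other 5 genes of the ischaemia group stayed under 5 FPKM in both libraries. Differences were 0.74 for the cytokine Clcf1 and 0.64 for the pentraxin Ptx3. The steroid transporter gene Slc10a6 was at 0.226 FPKM in control (0.102 to 0.341) against 1.01 in cKO (0.802 to 1.18), a plain ratio of 4.47. Its log2 difference was 0.71, and 1.77 with a pseudocount of 0.1 FPKM, where it was counted higher. The transglutaminase gene Tgm1 was at 0.594 and 1.203 FPKM, with a difference of 0.47, and of 0.91 with a pseudocount of 0.1 FPKM. The glycosyltransferase B3gnt5 had the lowest difference of all 34 genes, at 1.58 FPKM in control (1.34 to 1.82) against 0.962 in cKO (0.856 to 1.07), a log2 difference of -0.39 (-0.66 with a pseudocount of 0.1 FPKM). Its cKO interval lies below that of control, without reaching 2-fold.

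Among the 7 annexin, S100 and galectin genes grouped by family, 5 were counted higher, against 4.73% of all tested genes. The 5 differences lay between 1.07 and 1.11. All 5 lost the call after scaling to the same FPKM sum (log2 0.71 to 0.75) and after centring on the median. All but S100a11 also lost it after scaling to the same sum without small RNAs. Annexins are calcium-dependent phospholipid-binding proteins, and several pair with S100 proteins, which are small EF-hand calcium sensors. Anxa2, which binds plasminogen and its activator at the cell surface, was at 203 FPKM in control (169 to 182) against 430.4 in cKO (364 to 372), a log2 difference of 1.08. Anxa1, known for anti-inflammatory actions, was at 24.8 FPKM in control (20.02 to 24.4) against 53.9 in cKO (45.0 to 48.5), a log2 difference of 1.09. Anxa3 was at 42.5 FPKM in control (35.6 to 40.3) against 91.4 in cKO (78.5 to 82.5), also 1.09. For these 3 annexins each value lies above its interval, and the libraries are separate. S100a11, a partner of annexin A1 (chromosome 3, 93324418 to 93330210, mm9), was at 149 FPKM in control (84.4 to 99.0) against 321 in cKO (188 to 198), a log2 difference of 1.11. Its FPKM is 1.62 times the midpoint of its interval in control and 1.66 times in cKO, so its level is uncertain by more than its interval shows.

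S100a6, or calcyclin, had the highest FPKM of the 34 genes in both libraries, at 538 in control and 832 in cKO (chromosome 3, 90416816 to 90418336, mm9). Its log2 difference of 0.63 did not meet the rule. The galectins differed from each other. Lgals1, a lectin of stromal and vascular cells, was at 186 FPKM in control (134 to 149) against 390.4 in cKO (287 to 298), a log2 difference of 1.07. Lgals3, a lectin abundant in macrophages, was at 8.67 FPKM in control (7.601 to 9.75) against 9.59 in cKO (8.87 to 10.3), with overlapping intervals. Its log2 difference was 0.13, a value that scaling to a common sum turned to -0.19.

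The relatives of these genes outside the 34 were read for comparison. Of 7 other annexins tested, 2 were counted higher, against 4.73% of all tested genes, and the median difference was 0.88. After scaling to the same FPKM sum 0 were counted, against 1.49% of all tested genes. Anxa5 was at 150.3 FPKM in control against 328 in cKO (log2 1.12), Anxa4 at 14.5 and 31.9 (log2 1.09), and Anxa6 at 78.3 and 128 (log2 0.70). Of 9 other S100 genes tested, 0 were counted in either direction, and their median was -0.06. S100a3 was just short of the rule, at 6.77 FPKM in control (4.07 to 6.71) against 2.905 in cKO (1.78 to 2.81), a log2 difference of -0.99. Of these 9 genes, 1 was counted lower under each of the 4 other scalings and 2 with a pseudocount of 0.1 FPKM. S100a14 (1.05 and 0.314 FPKM, log2 -0.64), S100a16 (log2 -0.44) and S100a13 (log2 -0.39) also had a cKO interval below that of control. S100b, an astrocyte and oligodendrocyte lineage gene, was at 324 and 561 FPKM (log2 0.79), whereas S100a4 was at 344 and 331 (log2 -0.06). Of 4 other galectins tested, 0 were counted, with a median of 0.16, and Lgals9 was at 21.1 and 38.1 FPKM (log2 0.83) and Lgals8 at 22.8 and 26.3 (log2 0.19, and -0.15 after scaling to the same sum). No test of the differences between these families was made.

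**Figure D3:**
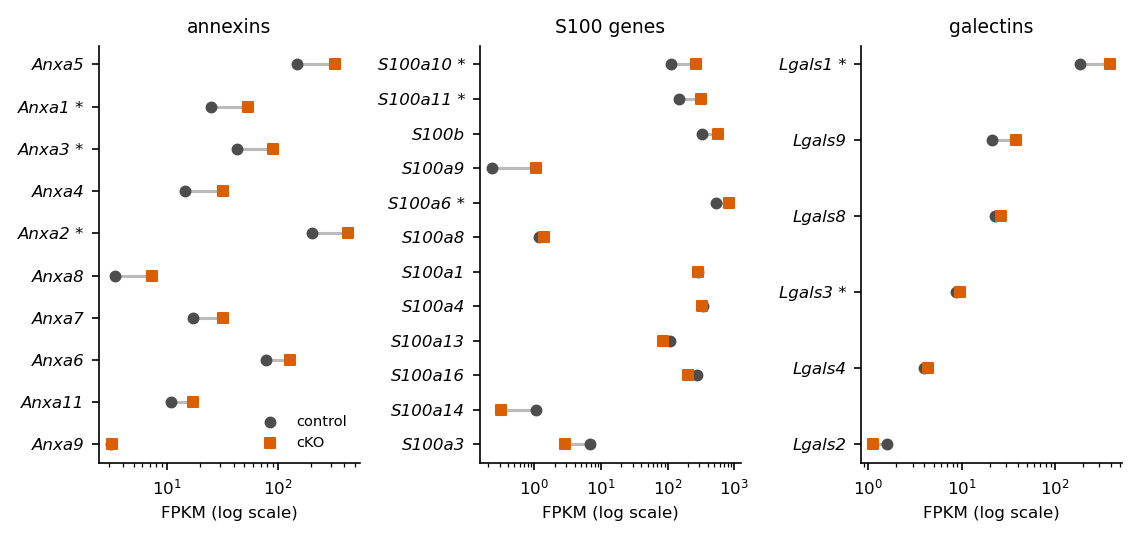
Panels show annexin, S100 and galectin genes with at least 1 FPKM in either library, ordered by log2 difference, with FPKM on a log axis. Grey circles are the control library, orange squares the cKO library, and an asterisk marks genes of the 34. Squares lie to the right of circles for each annexin, by the least for Anxa9 (log2 0.03, and -0.24 after scaling to the same sum), while S100 genes lie on both sides.

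Of the 6 remaining genes, 3 were counted higher, against 4.73% of all tested genes. These 3 include the largest differences of the 34. Orm2 encodes orosomucoid 2, an acute phase protein of plasma (chromosome 4, 63023483 to 63026911, mm9). It was at 0.604 FPKM in control (0.234 to 0.936) against 7.76 in cKO (5.23 to 6.65), a log2 difference of 2.45, which the interval bounds place between 1.69 and 2.63. With the control value under 1 FPKM the difference depends on the pseudocount, and was 3.48 with 0.1 FPKM and 1.19 with 5 FPKM. Its relatives Orm3, at 0.127 and 1.85 FPKM (log2 1.34), and Orm1, at 0.0963 and 1.0 (log2 0.87), are near-identical copies that can share reads, so the split of the signal among them is uncertain.

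Fam107a encodes an actin-associated protein of astrocytes and radial glia (chromosome 14, 9128792 to 9142290, mm9). It was at 61.2 FPKM in control (55.9 to 60.4) against 257 in cKO (238 to 243), a log2 difference of 2.05. It was counted higher in all 12 other settings, with differences of 1.70 to 2.05 over the scalings. Tspo, the mitochondrial translocator protein used as the target in PET imaging of glial reaction, was at 12.8 FPKM in control (8.72 to 12.5) against 31.1 in cKO (22.8 to 25.7), a log2 difference of 1.21. Tspo was counted in every other setting except the scaling to the same sum (log2 0.88).

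Plat, tissue plasminogen activator, was the most abundant of these 6 genes in control, at 242 FPKM (220.0 to 230.0), and was at 234 in cKO (213 to 218). Its log2 difference was -0.05 and lay between -0.41 and -0.05 over the scalings. The genes Bcl3, a cofactor of NF-kappa-B, and Pim1, a kinase that STAT factors induce, stayed under 5 FPKM in both libraries, with differences of 0.56 and 0.46. Of 4 tested genes of the plasminogen system outside the 34, 0 were counted, and Serpine2, a protease inhibitor of glia, was at 59.1 and 82.5 FPKM (log2 0.47), while the urokinase gene Plau was at 5.45 and 4.06 (log2 -0.35).

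Further relatives of the single genes gave mixed values. The TIMP genes outside the 34 had differences of 0.67 (Timp2), 0.82 (Timp3) and 0.70 (Timp4), and 0 of 3 were counted, although Timp2 and Timp3 were at 172 and 96.4 FPKM in control against 11.02 for Timp1. Steap3 was counted higher, at 15.3 FPKM in control against 40.4 in cKO (log2 1.34), and Steap2 was not, at 1.18 and 1.101 FPKM. Of 6 tested genes of the Serpina3 cluster, Serpina3m (log2 1.09) and Serpina3g (log2 1.07) were counted higher, against 4.73% of all tested genes. Genes of that cluster are close copies and can share reads with Serpina3n, so their values are uncertain.

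Of the 34 genes, 21 were noted from general knowledge as also made by fibroblasts or vessels. The other 13 were not noted there, which does not show that these cells lack them, and the sources listed may be incomplete. Fibroblasts are a known source of 12, Cd44, Timp1, Fbln5, Ptx3, S100a10, Cd109, Emp1, S100a6, S100a11, Anxa1, Anxa2 and Lgals1. Endothelium is a known source of 15, Lcn2, Hspb1, Ggta1, Srgn, Ptx3, S100a10, Cd109, Emp1, Slc10a6, S100a11, Anxa2, Anxa3, Lgals1, Tspo and Plat. Mural cells are a known source of 5, Steap4, Hspb1, Fbln5, Lgals1 and Tspo. Of these 21 genes 12 were counted higher, with a median of 1.07. Of the other 13 genes 3 were counted higher (Orm2, Fam107a and Cd14), with a median of 0.74. Over all tested genes the share was 4.73%. After scaling to the same FPKM sum the order of the counts turned, with 1 of the 21 and 2 of the 13 counted higher, against 1.49% of all tested genes. The medians kept their order there, at 0.73 for the 21 and 0.43 for the 13. The counts were 7 and 2 without small RNAs in the sum, 10 and 2 with the same upper quartile, and 6 and 2 after centring. Shares over all tested genes were then 3.45%, 3.77% and 3.10%. The assignment to known sources was written by hand and not measured here, and the difference between the sets was not tested.

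Markers of those cell types were read in the same libraries and gave unlike results. Of 12 meningeal fibroblast markers 10 were counted higher, with a median of 1.32 and a summed level of 1609 FPKM in control against 3813 in cKO, and none was at 0. The most abundant were the collagen genes Col1a2 (335 and 704 FPKM, log2 1.07) and Col3a1 (285 and 684 FPKM, log2 1.26). Of 10 mural cell markers 1 was counted higher, with a median of 0.72 and sums of 291 and 525 FPKM. Of 12 endothelial markers 0 were counted, with a median of 0.36 (0.04 after scaling to the same FPKM sum) and sums of 189 and 245 FPKM. For the 16 astrocyte markers, 5 were counted higher, the median was 0.69, and the sums were 1970 and 3520 FPKM. Of these 16, 15 had a difference above 0. The exception was Aqp4, at 181 FPKM in control (172 to 178) against 153 in cKO (146 to 149), a log2 difference of -0.24. After scaling to the same FPKM sum, 6 fibroblast, 0 mural cell and 2 astrocyte markers were counted higher. The share counted higher over all tested genes was 4.73% as reported and 1.49% after this scaling. The part of each cell type in the result was not tested.

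Cd14, Lgals3 and Srgn are among the genes of the 34 that are also known from myeloid cells. No full assignment of the 34 to myeloid cells was made. Myeloid markers were read in the same way. Of 6 markers of border macrophages 5 were counted higher, against 4.73% of all tested genes. Their median was 1.31, with sums of 50.7 and 132 FPKM. After scaling to the same FPKM sum 2 were counted, against 1.49% of all tested genes. Of 12 microglia markers 0 were counted, with a median of 0.09 and sums of 268 and 339 FPKM, and the median turned to -0.24 with both libraries at a common FPKM sum. Of the 8 neutrophil markers with an entry, 5 stayed under 1 FPKM in both libraries, and 3 (Mpo, Elane and Retnlg) were listed at 0 in control. Hemoglobin genes were higher in cKO, with 2 of 3 tested red blood cell markers counted and a summed level of 85.4 FPKM in control against 265 in cKO. Schwann cell markers summed to 14.1 and 18.2 FPKM, with 0 of 4 tested counted. The part of these cells in the values of the 34 genes was not tested.

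**Figure D4:**
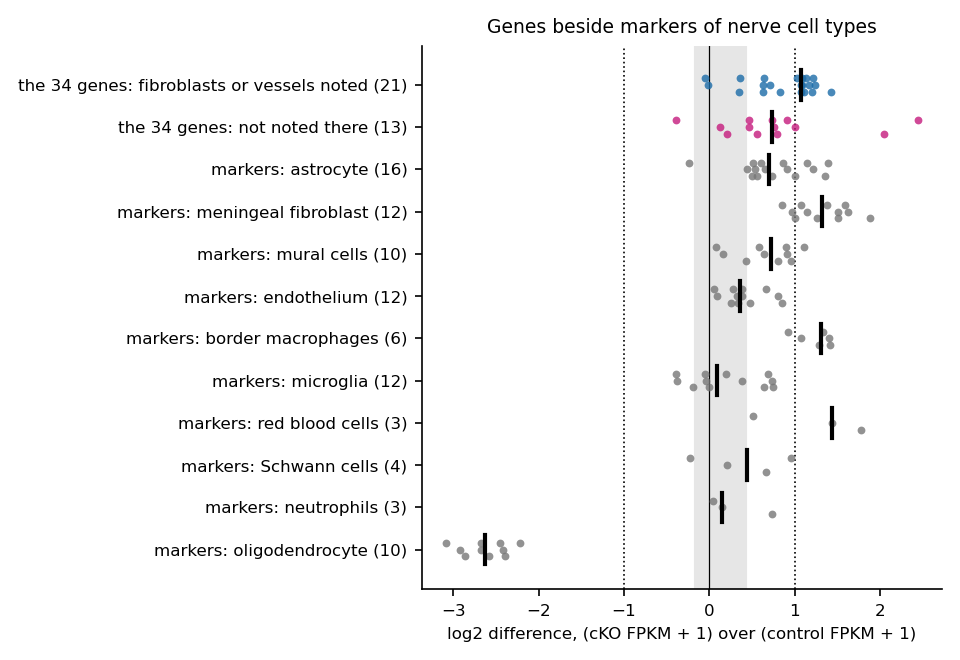
The horizontal axis is the log2 difference of cKO against control, points are genes, black bars are medians, numbers of tested genes are in parentheses, the grey band is the middle 50% of tested genes and dotted lines are the 2-fold limits. The medians are 1.07 and 0.74 for the 34 genes by known source, 0.69 for astrocyte, 1.32 for meningeal fibroblast and -2.63 for oligodendrocyte markers.

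Other genes of the reactive programme, from a list of 22 outside the 34, gave 9 counted higher among 20 tested, against 4.73% of all tested genes. Of these 20, 0 were counted lower, and the median was 0.89. After scaling to the same FPKM sum, 2 were counted higher, against 1.49% of all tested genes. The largest differences were those of C3, the complement component (6.57 and 37.2 FPKM, log2 2.34), Serping1, the inhibitor of C1 (log2 1.49), Sphk1, sphingosine kinase 1 (10.9 and 28.3 FPKM, log2 1.30), and Thbs1, a thrombospondin (4.59 and 12.6 FPKM, log2 1.29). Vim, the filament protein vimentin and the most abundant of the tested genes, was at 1762 and 2250 FPKM (log2 0.35), and the interferon-induced Ifitm3 at 197 and 439 (log2 1.15). Of the 20, 1 had a difference below 0. This was Cxcl10, at 13.6 FPKM in control (10.1 to 13.1) against 9.50 in cKO (7.28 to 8.85), log2 -0.47. Gfap, the classical marker of reactivity, was at 3997 FPKM in control. In cKO it was listed at 0 with the status HIDATA, which Cufflinks gives to a locus with too many fragments, so no difference can be given.

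Genes upstream of the reaction were read as well. Of 11 inducing cytokines and related signals, 6 were under 1 FPKM in both libraries (Il1a, Il1b, Tnf, Il6, Osm and Ifng). The most abundant was C1qa, a complement subunit made by microglia, at 65.5 and 107 FPKM (log2 0.71). Cntf, a gp130 cytokine of astrocytes and Schwann cells, was counted higher with 4.98 FPKM in control against 12.0 in cKO (log2 1.12). It was 1 of 5 tested genes of this list counted higher, against 4.73% of all tested genes. Cntf was not counted after scaling to the same FPKM sum, after centring on the median or with a pseudocount of 5 FPKM. Of 17 receptors and transducers 2 were counted higher, against 4.73% of all tested genes. These were the transcription factors Cebpb (log2 1.75) and Cebpd (log2 1.17). After scaling to the same FPKM sum 1 was counted, against 1.49% of all tested genes. The shared receptor subunit Il6st was at 60.6 and 119 FPKM (log2 0.96), and Stat3 was at 46.6 and 51.4 (log2 0.14, and -0.21 after scaling to the same sum). The median of this list was 0.58.

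Fkbp5 and Fam107a are induced by glucocorticoids, so a list of 13 further glucocorticoid response genes was read beside them. Of these 4 were counted higher and 0 lower, against 4.73% and 4.51% of all tested genes, with a median of 0.80. Cdkn1a, a cell cycle inhibitor, had a log2 difference of 1.66, Mt2 and Mt1, which encode metallothioneins, had 1.64 and 1.2, and Tsc22d3, also called Gilz, had 1.51, at 59.8 FPKM in control against 173 in cKO. The kinase gene Sgk1 went the other way, at 47.2 and 35.2 FPKM (log2 -0.41), and the receptor gene Nr3c1 was at 15.3 and 21.3 (log2 0.45). These genes also respond to other signals.

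**Figure D5:**
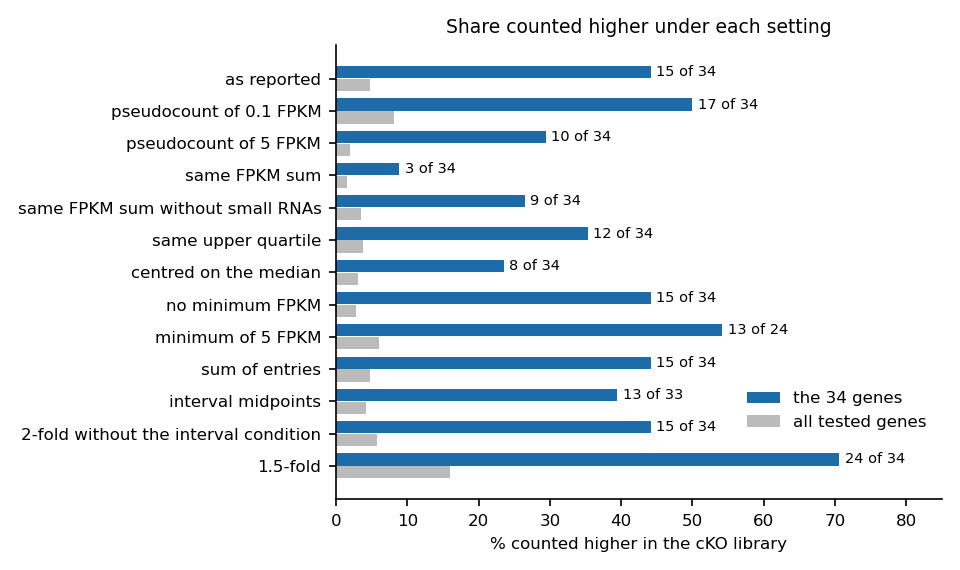
Bars give the percent of genes counted higher in cKO under the reported setting and each of 12 others, in blue for the 34 genes with the count printed, and in grey for all tested genes. The blue bar exceeds the grey one in each setting, from 3 of 34 after scaling to the same FPKM sum to 24 of 34 with a 1.5-fold limit.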

How the data were processed

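The authors deposited FPKM per gene for each library, with the bounds of an interval and a status, as labelled per the file headers. CASAVA, TopHat, Cufflinks and build mm9 are listed in the submitters' processing notes. The sources used here give no versions, annotation or normalisation mode. The tables (24460 entries) were joined by symbol, start site group and locus. For 268 symbols with several entries, the one highest in summed FPKM was taken. Genes were tested with status OK in both libraries and at least 1 FPKM in at least 1. Differences used a pseudocount of 1 FPKM, so they understate the change of low genes. Many FPKM lie outside their own interval (15.9% of tested genes at 1 FPKM or more in control, 33.0% in cKO). Of the 34 genes, 13 values in control and 19 in cKO lie above it, and none below.

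The members and lists were chosen with earlier results of these data known. All 34 genes are accounted for. Of the further reactive genes, receptors and transducers, glucocorticoid response genes and gene families, genes that met the rule (at most the 4 largest differences) and the 2 most abundant are named. Of cell type markers at most the 2 most abundant are named. A few were named after their values were seen (Timp4, the cytokine genes, C1qa, Cxcl10, Aqp4, S100a3, S100a13, S100a14, S100a16, Sgk1, Nr3c1, Anxa9 and genes at 0). Starts of loci were raised by 1, since end minus start equalled the RefSeq hairpin length for 874 of 890 miRNA genes. Python 3.11.15, pandas 2.3.3 and numpy 2.4.6 were used, and the counting rule was tested on simulated data. The alternatives were other pseudocounts (0.1 and 5 FPKM), scalings, minimum FPKM (none and 5), entries, interval midpoints and call limits.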

Additional observations from a re-analysis of the deposited data

How the results depend on the processing

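Of the 15 genes counted higher, 3 were counted in every other setting. The count was 3 after scaling to the same FPKM sum, 9 after the same scaling without small RNAs (11.01% of the FPKM of 1 entry per symbol in control, 25.4% in cKO), 8 after centring on the median and 24 at 1.5-fold. With a pseudocount of 5 FPKM it was 10. None of the 34 was counted lower in any setting. The median of the 34 was 0.56 after scaling to the same sum. Counts over all tested genes, 669 higher and 638 lower as reported, were 1156 and 823 with a pseudocount of 0.1 FPKM, 282 and 339 with 5 FPKM, 211 and 1031 after scaling to the same sum, 439 and 793 after centring, and 2262 and 1253 at 1.5-fold. Counts higher in the lists also fell after scaling to the same sum, from 12 to 1 of the 21 genes known from fibroblasts or vessels and from 3 to 2 of the other 13. They fell from 10 to 6 for fibroblast markers, 5 to 2 for astrocyte markers, 5 to 2 for border macrophages, 9 to 2 for further reactive genes and 2 to 0 for other annexins. List medians changed sign for microglia (-0.24 after scaling to the same sum, -0.03 after centring), neutrophils (-0.05) and other galectins (-0.16) after scaling to the same sum, and for other S100 genes (0.01) and other Steap genes (-0.05) with no minimum FPKM. The cause was not tested. No paired analysis was possible because each group has 1 library, and for the same reason no library could be left out.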
